A study of Mus musculus with 4 samples.

Results

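Here 10 genes of the cytotoxic programme of natural killer (NK) cells and CD8 T cells were followed through mouse bone marrow: Gzma, Gzmb, Prf1, Nkg7, Ccl5, Klrd1, Klre1, Klrb1c, Ncr1 and Eomes. They were chosen by symbol, and all 10 were found among the 32544 genes of the tables. Bone marrow of YAP1 heterozygote mice (2 libraries) was compared with that of wild-type (WT) mice (2 libraries), all at 10 weeks of age. Nucleated marrow cells had been sorted by flow cytometry and sequenced with a droplet method that counts the 3' ends of single molecules through unique molecular identifiers (UMIs). How the Yap1 allele was made, and the sex and strain of the mice, are not given in the labels used here. Nothing in the labels says that each library came from a different mouse, so p-values measure the spread between libraries, which may be technical.

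NK cells and CD8 T cells kill by releasing lytic granules onto a target cell. Perforin, from Prf1, makes pores in the target membrane, and the granzymes, serine proteases such as those from Gzma and Gzmb, enter through them and start cell death. NKG7 is a membrane protein of these granules that takes part in their release, and CCL5 is a chemokine that cytotoxic lymphocytes store and secrete. Receptors at the cell surface set when an NK cell releases its granules: NKp46, from Ncr1, activates, and the lectin-like proteins from Klrd1 (CD94), Klre1 and Klrb1c (NK1.1) pair with other chains or act alone. EOMES, a T-box transcription factor, is needed for the maturation of conventional NK cells and works in memory CD8 T cells.

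The 10 genes lie on 7 chromosomes of the GRCm38 build, and every one is protein coding. Klre1 (chr6:129577905-129585827) and Klrd1 (chr6:129591782-129598775) are neighbours on the plus strand, 5954 bases apart, and Klrb1c (chr6:128778485-128789215, minus strand) lies in the same NK gene complex. Klrb1c overlaps the annotated gene Gm44511 on its own strand, and Eomes (chr9:118478212-118486132, plus strand) overlaps Gm33460 on the opposite strand. Whether these overlaps changed the counts of Klrb1c or Eomes was not tested. For all 10 genes, none of the 441 windows of 60 bases in the last 500 bases of the transcript was found in another gene.

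The 250 bases before a start of transcription given by RefSeq were read on GRCm38.p6 for the 8 members with an entry. A RefSeq start can lie inside the gene as annotated above. The 5 windows printed here were picked among those that hold the first motif named below. Capitals mark TGTGGT or its reverse complement ACCACA (the core bound by RUNX factors), GGTGTG (a T-box core) and a match to TTCNNNGAA (a STAT site). Every sequence reads 5' to 3' on the gene's own strand, and the motifs do not overlap in these sequences.
Gzma, chr13:113100982-113101231, minus strand: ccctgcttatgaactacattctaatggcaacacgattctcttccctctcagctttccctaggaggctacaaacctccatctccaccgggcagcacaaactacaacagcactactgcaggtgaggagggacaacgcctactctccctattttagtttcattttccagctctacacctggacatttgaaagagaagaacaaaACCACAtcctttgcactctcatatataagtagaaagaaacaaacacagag
Gzmb, chr14:56262335-56262584, minus strand: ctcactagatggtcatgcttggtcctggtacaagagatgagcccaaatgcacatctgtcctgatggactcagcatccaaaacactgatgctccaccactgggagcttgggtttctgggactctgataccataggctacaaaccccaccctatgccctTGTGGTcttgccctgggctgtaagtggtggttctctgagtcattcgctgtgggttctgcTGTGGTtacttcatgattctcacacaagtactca
Prf1, chr10:61297586-61297835, plus strand: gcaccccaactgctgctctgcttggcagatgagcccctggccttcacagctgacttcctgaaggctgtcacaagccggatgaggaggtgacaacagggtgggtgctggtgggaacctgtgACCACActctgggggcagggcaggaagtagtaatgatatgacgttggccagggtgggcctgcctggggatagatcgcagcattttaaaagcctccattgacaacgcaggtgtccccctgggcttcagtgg
Nkg7, chr7:43436888-43437137, plus strand: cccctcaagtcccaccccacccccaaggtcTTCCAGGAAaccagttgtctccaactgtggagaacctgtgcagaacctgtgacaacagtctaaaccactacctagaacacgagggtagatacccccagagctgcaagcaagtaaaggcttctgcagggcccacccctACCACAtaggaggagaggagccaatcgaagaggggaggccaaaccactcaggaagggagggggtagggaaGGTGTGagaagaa
Ncr1, chr7:4337465-4337714, plus strand: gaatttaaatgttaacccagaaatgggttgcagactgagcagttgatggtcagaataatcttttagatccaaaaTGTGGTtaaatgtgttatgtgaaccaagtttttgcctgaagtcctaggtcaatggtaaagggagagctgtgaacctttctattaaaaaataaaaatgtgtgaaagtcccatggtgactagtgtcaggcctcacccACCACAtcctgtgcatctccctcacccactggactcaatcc

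On both strands together, the RUNX core was found in 7 of the 8 members, and in 14.0% of 32851 RefSeq promoter windows of the same length. Gzmb and Ncr1 each held 2 copies, and Gzma, Prf1, Nkg7, Klre1 and Klrb1c each held 1. Klre1 and Ncr1 each had 2 RefSeq windows, of which the first was counted. In the second window Klre1 held 0 copies and Ncr1 held 2. By the gene coordinates given above, the Klrb1c window and both Klre1 windows lie inside the gene. The count of members therefore depends on the starts taken for Klre1 and Klrb1c. The T-box core was found in 1 of the 8, Nkg7, and in 16.3% of all windows. This T-box match lies past the annotated start of Nkg7, at base 43437073, so it too depends on the start taken. The STAT motif was also found in 1 of the 8, Nkg7, and in 7.02% of all windows. A match describes the letters of the window and is no evidence of binding. The Eomes window held none of the 3 motifs.

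After removal of doublets and of cells with few genes or much mitochondrial RNA, 10570 and 13220 cells of YAP1 heterozygote libraries and 12534 and 11363 cells of WT libraries remained, 47687 in all. Total UMIs over all barcodes, before this removal, were similar between libraries, from 112806900 to 119855112, and the median kept cell had 5520 to 6747 UMIs. Cell barcodes that also occurred in another library made up 1.09% to 1.29% of all barcodes before the removal. WT replicate 1 stood apart: it held 1111 of the 1281 cells of one cluster of mature neutrophils and 365 of the 381 cells of another neutrophil cluster that was left unnamed. The targeted gene cannot check the labels at this depth, since Yap1 had 0 and 6 UMIs in the YAP1 heterozygote libraries and 6 and 7 UMIs in the WT libraries.

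Cells were grouped by clustering from which the 10 members were left out, and the groups were named from other marker genes. This gave 391 NK cell-like cells (84 and 114 in YAP1 heterozygote libraries, 101 and 92 in WT libraries) and 825 CD8 T cell-like cells (127 and 276, against 184 and 238). Their defining markers were present: all 14 NK markers were detected in the NK cell-like cells, where Il2rb was found in 95.4% of cells, Klrk1 in 92.8% and the T cell gene Cd3e in 0.512%. In CD8 T cell-like cells Cd3e was found in 77.7% and Cd8b1 in 72.5%. Levels below are CPM, UMI counts scaled to one common total, of the cells of one class summed within a library, and since every transcript is counted at its 3' end they are not divided by length. Differences in level between classes are descriptions, with no test, because the classes come from the same cells.

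Lytic granule genes were concentrated in the NK cell-like class, which held 0.820% of kept cells, but Gzmb and Nkg7 had most of their UMIs elsewhere. NK cell-like cells held 79.5% of the Gzma UMIs of the marrow and 61.4% of the Prf1 UMIs, against 4.70% and 14.3% in CD8 T cell-like cells. For Gzmb, 67.3% of the UMIs were in basophil or mast cell-like cells and 15.7% in NK cell-like cells. For Nkg7, 71.8% were in neutrophil precursor-like cells and 5.56% in NK cell-like cells. The chemokine gene Ccl5 was split among NK cell-like cells (33.4%), CD8 T cell-like cells (25.8%) and the unnamed T and NK sub-clusters 2 and 5 (27.7%).

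**Figure D1:**
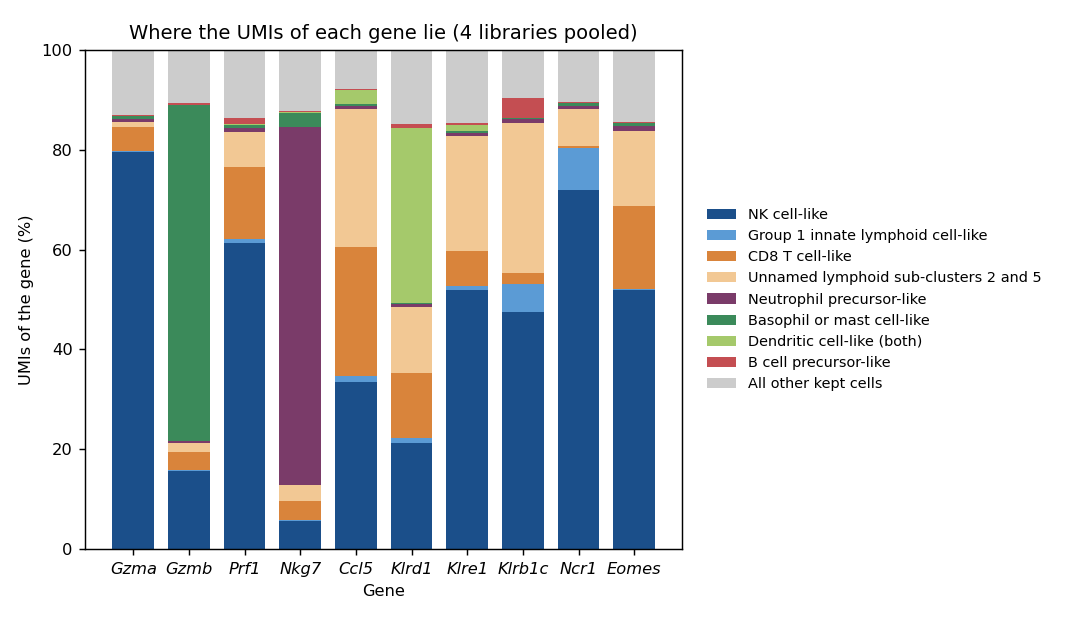
Share of each gene's UMIs, in percent of all its UMIs in the kept cells of the 4 libraries, by class of cells. Bars start at 0; Gzma, Ncr1 and Prf1 have most of their UMIs in NK cell-like cells, and Gzmb and Nkg7 have most of theirs in basophil or mast cell-like and neutrophil precursor-like cells.

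The receptor genes had a more even spread than Gzma. NK cell-like cells held 71.9% of the Ncr1 UMIs, 52.0% of the Klre1 UMIs, 51.8% of the Eomes UMIs and 47.5% of the Klrb1c UMIs. Only 21.2% of the Klrd1 UMIs were there, and 34.9% were in the 2 dendritic cell-like classes. Group 1 innate lymphoid cell-like cells, a class of 36 cells, held 8.47% of the Ncr1 UMIs and 5.52% of the Klrb1c UMIs.

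By level, NK cell-like cells were first among the classes for 8 of the 10 genes. Prf1, Nkg7 and Klre1 stood clear of the next class, with no overlap between the ranges of the 4 libraries. The other 5 first places overlapped with the next class: Gzma with sub-cluster 4 (32 cells), Gzmb with basophil or mast cell-like cells, Ccl5 with sub-cluster 2, Klrd1 with sub-cluster 4 and Eomes with sub-cluster 13 (13 cells). Klrb1c and Ncr1 were highest in the group 1 innate lymphoid cell-like class, at 1051 ± 133 and 570 ± 108 CPM (SD, n = 4 libraries), against means of 798 and 429 CPM in NK cell-like cells, and the ranges of these classes overlapped.

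**Figure D2:**
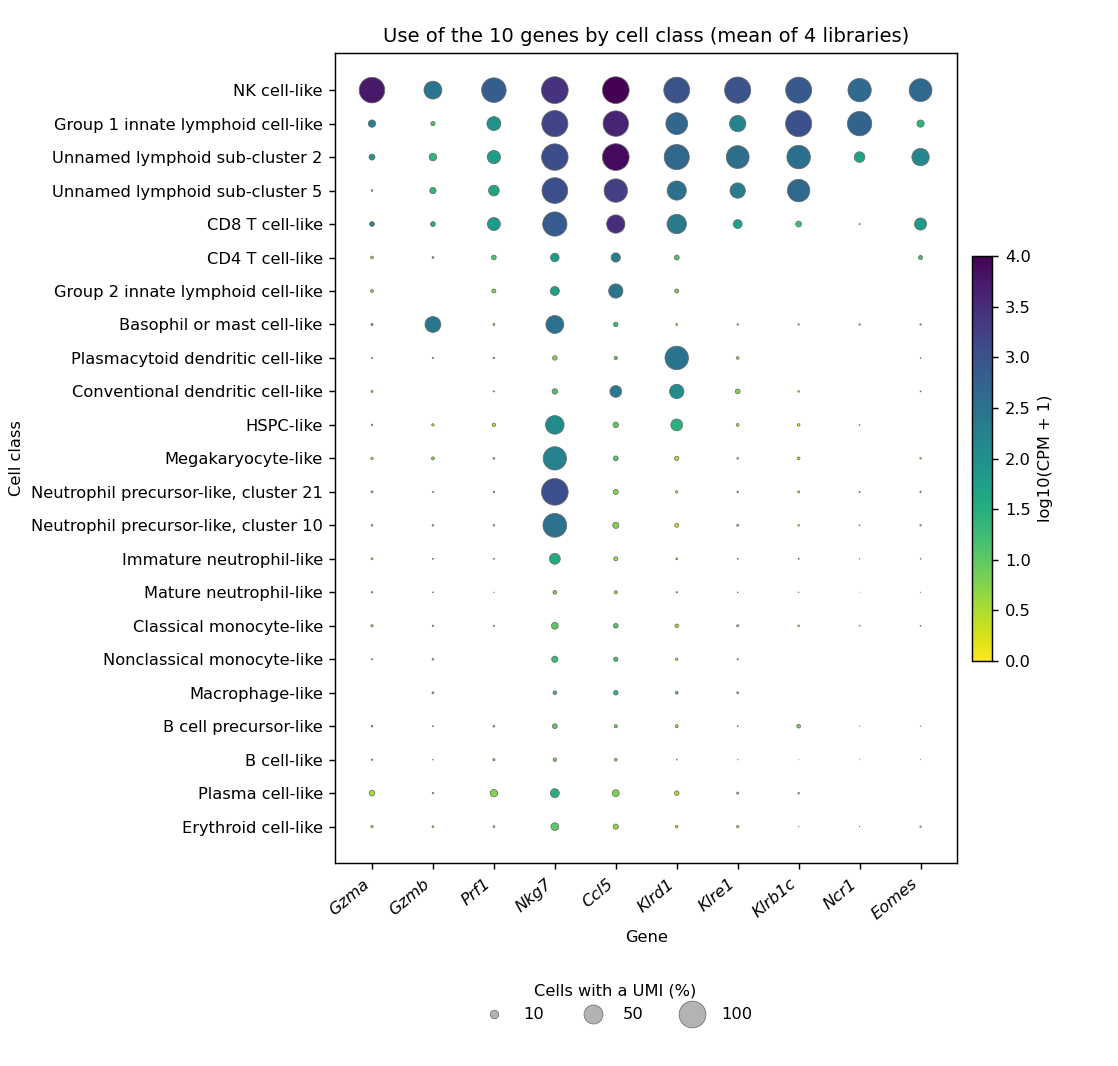
Use of the 10 genes (columns) by class of cells (rows), as means of the 4 libraries; colour gives log10(CPM + 1) and the size of a point the percent of cells with a UMI. Granule genes and receptors are high in NK cell-like cells, Nkg7 is also high in neutrophil precursor-like cells, Klrd1 in plasmacytoid dendritic cell-like cells and Gzmb in basophil or mast cell-like cells.

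B cell-like cells, which should lack these genes, gave the background of free RNA. Of 5487 such cells, with a median of 2773 UMIs, 1.60% had a UMI of Nkg7, 1.17% of Ccl5, 0.674% of Prf1 and 0.310% of Gzma, and for the other 6 genes the share was 0.109% or less. Shares of cells near these values are read as background. NK cell-like cells had a median of 3947 UMIs, and there Nkg7 was found in 99.7% of cells, Ccl5 in 99.5%, Klre1 in 95.4%, Klrb1c in 93.9%, Klrd1 in 93.1%, Gzma in 91.6%, Prf1 in 83.9%, Ncr1 in 76.0%, Eomes in 72.4% and Gzmb in 44.8%.

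The NK cell-like class had 2 sub-clusters, and among the 10 genes Gzmb, Gzma and Prf1 had the largest ratios between them. In sub-cluster 3 (104 cells, median 2544 UMIs) Gzma was at 13464 CPM and in sub-cluster 1 (287 cells, median 4457 UMIs) at 4041 CPM. Gzmb was at 875 CPM in sub-cluster 3 and 173 CPM in sub-cluster 1, and Prf1 at 1538 and 481 CPM. Eomes was at 432 CPM in sub-cluster 3 and 478 CPM in sub-cluster 1, found in 57.7% and 77.7% of the cells. Sub-cluster 3 made up 29.8% and 36.0% of NK cell-like cells in YAP1 heterozygote libraries, and 13.9% and 26.1% in WT libraries.

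CD8 T cell-like cells used the same genes unevenly. Sub-cluster 0 (133 cells) had Gzmk, a granzyme gene outside the 10, in 40.6% of its cells, and sub-cluster 7 (475 cells) had Ccr7, the homing receptor of naive T cells, in 76.8%. Gzma was at 889 CPM in sub-cluster 0, found in 17.3% of cells, and at 0.461 CPM in sub-cluster 7, from 1 UMI in 475 cells. Ccl5 was at 11232 CPM in sub-cluster 0 and 4668 CPM in sub-cluster 8 (217 cells), and at 143 CPM in sub-cluster 7. Nkg7 was found in 73.1% of the cells of sub-cluster 7, 94.0% of those of sub-cluster 0 and 94.5% of those of sub-cluster 8, well over the 1.60% in B cell-like cells.

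Receptor genes separated CD8 T cell-like cells from NK cell-like cells. Klrd1 was found in 52.1% of CD8 T cell-like cells, while Klre1 was found in 11.4%, Klrb1c in 4.85% and Ncr1 in 0.242%. The Ncr1 UMIs were 4, in 2 cells, and 3 of them were in 1 cell. In sub-cluster 7, Klrb1c was found in 0 of 475 cells, which allows a share of cells with a UMI of up to 0.632% (3 counts of the total). Eomes was found in 19.6% of CD8 T cell-like cells, and Prf1 in 23.2%.

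The remaining lymphoid cells had partial sets of the 10 genes. Group 1 innate lymphoid cell-like cells had Klrb1c in 94.4% and Ncr1 in 80.6% of 36 cells, with Eomes in 8.33% and Gzma in 5.56%. Sub-cluster 2 (292 cells, Cd3e in 86.6%) had Ccl5 at 7909 CPM, Klrb1c in 75.7%, Klre1 in 71.2% and Eomes in 42.1% of cells, with Ncr1 in 15.8% and Gzma in 4.79%. In sub-cluster 5 (164 cells, Cd3e in 83.5%) Klrb1c was found in 70.1% of cells, and Ncr1 and Eomes were each found in 0 of 164 cells, which by the same limit allows a share of cells with a UMI of up to 1.83%.

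Outside the lymphoid cells, Nkg7, Klrd1, Ccl5 and Gzmb were used well above background, and so was Klrb1c in 1 cluster of B cell precursor-like cells. Nkg7 was found in 99.3% of the 1659 cells of one neutrophil precursor-like cluster, at 1149 and 1021 CPM in YAP1 heterozygote libraries and 1072 and 1111 CPM in WT libraries. Those cells had a median of 25535 UMIs, deeper than the NK cell-like cells. It was also found in 75.6% of megakaryocyte-like, 48.3% of hematopoietic stem and progenitor cell (HSPC)-like and 43.8% of basophil or mast cell-like cells, at 175, 118 and 306 CPM. Klrd1 was found in 76.4% of the 1038 plasmacytoid dendritic cell-like cells, at 286 and 291 CPM in YAP1 heterozygote libraries and 249 and 319 CPM in WT libraries. These 4 values lay close together and the groups overlapped. Ccl5 was found in 20.7% and Klrd1 in 27.8% of conventional dendritic cell-like cells. Gzmb was found in 36.1% of basophil or mast cell-like cells, at 271 CPM over all libraries. Among B cell precursor-like cells, Klrb1c was found in 10.5% and Klrd1 in 5.10% of the cells of 1 cluster.

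Members were counted per cell after each cell was thinned to 1500 UMIs, so that deep cells do not count more genes. NK cell-like cells had a median of 7 of the 10, and 92.7% of them had 5 or more. At least 8 were found in 39.8% and 37.6% of NK cell-like cells of YAP1 heterozygote libraries, and in 32.0% and 35.9% of those of WT libraries. By sub-cluster, 67.3% of the cells of sub-cluster 3 had 8 or more, against 25.4% of those of sub-cluster 1. At least 3 members were found in 88.9% of group 1 innate lymphoid cell-like cells, 75.7% of the cells of sub-cluster 2, 49.7% of those of sub-cluster 5 and 24.3% of CD8 T cell-like cells. Of 5270 B cell-like cells 0 had 3 or more, which by the limit of 3 counts allows a share of up to 0.0569%.

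Of the 972 cells with at least 3 members, 39.1% were NK cell-like, 22.7% belonged to sub-cluster 2, 20.4% were CD8 T cell-like, 8.23% belonged to sub-cluster 5 and 3.29% were group 1 innate lymphoid cell-like. Only 14 lay outside the lymphoid cells, and all 14 had a UMI of Ccl5.

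**Figure D3:**
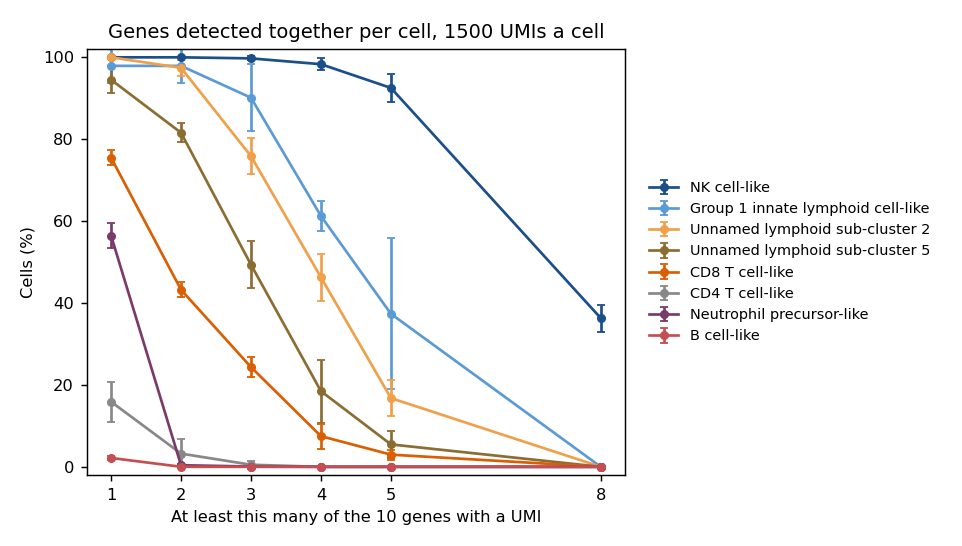
Percent of the cells of each class (y axis) with a UMI of at least 1, 2, 3, 4, 5 or 8 of the 10 genes (x axis), after thinning to 1500 UMIs; points are means and bars the SD of the 4 libraries. The NK cell-like line stays above 90% up to 5 genes, while the B cell-like line is near 0 throughout.

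Co-detection of the members was described for each pair by a ratio. In NK cell-like cells, over 381 thinned cells, the share of cells with both genes of a pair divided by the product of their single shares had a median of 1.01 over the 45 pairs, from 0.861 to 1.38. Ccl5 was found in 99.0% and Nkg7 in 96.1% of these cells, which holds the ratios of their pairs near 1, so the median does not show that the genes are used independently. The highest was Gzmb with Prf1, at 1.18 and 1.29 in YAP1 heterozygote libraries and 1.48 and 1.64 in WT libraries. Prf1 was found in 81.0% of Gzmb-positive cells and 48.7% of the others. Gzma with Gzmb (1.13) and Gzma with Prf1 (1.09) were also above 1 in all 4 libraries, as were Gzma with Klre1 and Klrd1 with Klre1. The lowest was Ncr1 with Eomes at 0.861, with 0.769 and 0.962 in YAP1 heterozygote libraries and 0.756 and 0.939 in WT libraries, and Klrd1 with Eomes was the only other pair below 1 in all 4. These pairs depend on the depth. In unthinned NK cell-like cells the ratios ran from 0.982 to 1.08, with 2 pairs above 1 in all 4 libraries and 0 below. Thinned to 1000 UMIs, 8 pairs were above and 3 below. Whether such counts of pairs exceed chance was not tested. In CD8 T cell-like cells, where the single shares are lower, the median over the 45 pairs was 1.61 in 815 thinned cells, and 16 pairs were above 1 in all 4 libraries. Nkg7 was found in 55.2% and Ccl5 in 41.8% of these cells, and their ratio was 1.45 and 1.43 in YAP1 heterozygote libraries and 1.19 and 1.41 in WT libraries. Ccl5 with Eomes had a ratio of 1.84 over all libraries. Gzma was found in 2.45% of these cells, and every one of them also had Nkg7 and Ccl5. The highest ratio, 40.8 for Gzma with Ncr1, came from a single cell.

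The genes with class profiles most like a member's were found by Pearson r of log2(CPM + 10) over 29 classes, among 13089 genes, as a description. The points share libraries and depth. Klrc2, Samd3 and Klrc1 (r from 0.963 to 0.977) were most like Klre1, and Klrc1, Xcl1 and Klrc2 (r up to 0.978) most like Klrb1c. Il2rb was first for Ccl5 (r = 0.957), Klrb1a for Ncr1 (0.953), Samd3 for Prf1 (0.938) and Klri2 for Gzma (0.924). The likeness was weaker for Cst7 with Nkg7 (0.888), Sh2d1a with Eomes (0.855) and Sytl3 with Gzmb (0.783).

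The share of cytotoxic cells was compared between YAP1 heterozygote and WT libraries first. NK cell-like cells made up 0.795% and 0.862% of kept cells in YAP1 heterozygote libraries, and 0.806% and 0.810% in WT libraries, an overlap. The difference of means was 0.0208 percentage points, with p = 1.00 in a two-sided exact permutation test, which cannot go below 0.333 with 2 against 2 libraries. Cells with at least 3 members made up 1.88% and 2.18% of kept cells in YAP1 heterozygote libraries, and 1.91% and 2.40% in WT libraries (difference -0.124 percentage points, exact permutation p = 0.667). With at least 4 members the difference was 0.0681 percentage points, of the opposite sign, and also within the spread (exact permutation p = 0.667).

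Within NK cell-like cells, none of the 10 genes passed the test, at an adjusted p under 0.05 in edgeR's quasi-likelihood test over 5469 genes. The background was small: 9 genes, or 0.165%, were called, all 9 lower in YAP1 heterozygote libraries, and 364 genes had an unadjusted p under 0.05. DESeq2 called 3. In 3 of the 10 genes, Gzma, Klre1 and Klrb1c, the 2 groups did not overlap, all with YAP1 heterozygote libraries higher, against 34.2% of all tested genes whose groups did not overlap.

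Gzma, the tryptase granzyme, had 6188 and 6730.0 CPM in YAP1 heterozygote libraries, against 4441 and 5161 CPM in WT libraries. Both YAP1 heterozygote libraries were above both WT libraries, with means of 6459 ± 384 and 4801 ± 509 CPM (SD, n = 2 each). The log2 fold change was 0.42 (SE 0.11, 95% interval 0.19 to 0.64), with an edgeR p of 0.000819 and an adjusted p of 0.153. Gzma was called without WT replicate 2 (edgeR adjusted p = 8.17e-05) and, with all libraries, with no filter on low counts (adjusted p = 0.0410), and over its 12 alternatives the log2 fold change ran from 0.28 to 0.53 and the adjusted p up to 1.00. The Gzma-rich sub-cluster 3 was a larger part of the class in YAP1 heterozygote libraries (29.8% and 36.0%, against 13.9% and 26.1% in WT libraries), and in sub-cluster 1 alone the log2 fold change of Gzma was 0.28 (edgeR adjusted p = 0.896). The part of these shares in the Gzma difference was not tested.

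Klre1, whose protein pairs with other lectin-like receptors in the mouse, had 1021 and 1060 CPM in YAP1 heterozygote libraries, against 868 and 889 CPM in WT libraries (log2 fold change 0.23, 95% interval -0.10 to 0.56). Klrb1c, which encodes NK1.1, had 947 and 837 CPM, against 661 and 747 CPM (log2 fold change 0.33, adjusted p = 0.789). The groups of both genes did not overlap, as for 34.2% of all genes tested in these cells, and neither passed the test.

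For the other 7 genes the groups overlapped. Gzmb had 286 and 304 CPM in YAP1 heterozygote libraries and 250 and 322 CPM in WT libraries, Prf1 619 and 777 against 551 and 685 CPM, and Nkg7 2711 and 3102 against 2107 and 2948 CPM. Their log2 fold changes were 0.04, 0.17 and 0.19. Ccl5 had 9399 and 12466 CPM in YAP1 heterozygote libraries, against 7990 and 10408 CPM in WT libraries, with a log2 fold change of 0.24 (SE 0.12, adjusted p = 0.778), and without WT replicate 2 it was called (log2 fold change 0.44, adjusted p = 5.97e-05), while without YAP1 heterozygote replicate 2 the log2 fold change was 0.0077 and over its 12 alternatives the adjusted p ran up to 1.00. Klrd1 had 905 and 1105 against 703 and 1069 CPM, and Ncr1 419 and 542 against 295 and 459 CPM, with log2 fold changes of 0.17 and 0.34. Eomes had 450 and 461 CPM in YAP1 heterozygote libraries and 565 and 398 CPM in WT libraries, and was the only 1 of the 10 with a negative log2 fold change, -0.09 (95% interval -0.49 to 0.30).

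**Figure D4:**
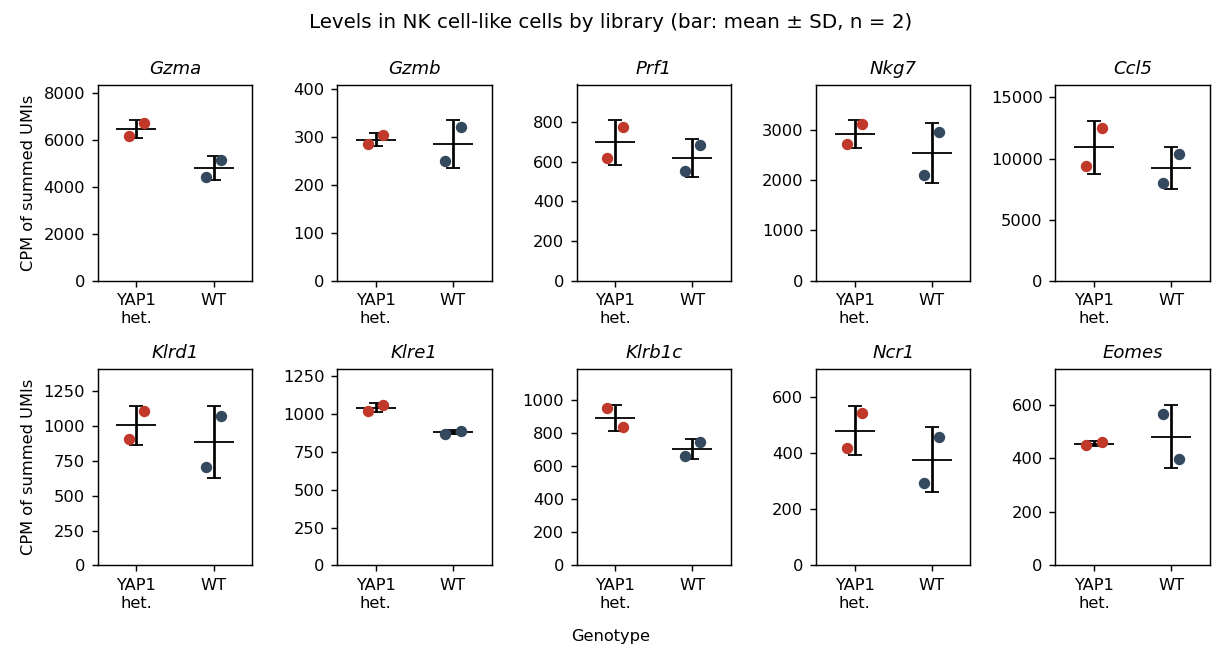
Level in NK cell-like cells of each of the 10 genes in each library, in CPM on linear axes from 0, with YAP1 heterozygote libraries to the left of WT libraries; lines and bars are means and SD (n = 2 each). Only for Gzma, Klre1 and Klrb1c do both YAP1 heterozygote points lie above both WT points. The groups did not overlap, in either direction, for 34.2% of all genes tested in these cells.

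The rest of the NK programme was read from 6 lists of genes, and none of their members was called. The NK receptor list had 20 genes tested, 15 with a positive and 5 with a negative log2 fold change, and a median of 0.17, beside 0.01 over all genes tested. The NK maturation list had 8 tested, 6 with a positive and 2 with a negative log2 fold change, and a median of 0.34. This list was not sorted by stage of maturation, so its median gives no direction of maturation. Of its 3 most expressed genes, Zeb2, a transcription factor of NK maturation, had 270 and 333 CPM in YAP1 heterozygote libraries, against 190 and 216 CPM in WT libraries (log2 fold change 0.56, adjusted p = 0.481), and Cd7 and Emb had log2 fold changes of 0.14 and -0.31. Zeb2 was also a leading gene of sub-cluster 3, and the part of that sub-cluster's share in the Zeb2 values was not tested. S1pr5, which guides NK cells out of the marrow and was singled out after its values were seen, had 109 and 112 CPM in YAP1 heterozygote libraries, against 60.3 and 34.4 CPM in WT libraries (log2 fold change 1.19, adjusted p = 0.144). The lytic granule and effector list had 17 tested and a median of -0.05; among its most expressed genes, the chemokine genes Ccl4 and Xcl1 had log2 fold changes of -0.45 (adjusted p = 0.535) and -0.60 (adjusted p = 0.159), and Ccl3 0.16. The median was -0.14 over 11 transcription factors, -0.01 over 9 cytokine and homing receptors and -0.0035 over 12 receptor adaptors and signalling genes. Summed NK markers were alike in the groups, at 7062 and 7301 CPM in YAP1 heterozygote libraries and 7157 and 7158 CPM in WT libraries.

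In CD8 T cell-like cells, 0 of the 9 genes tested were called, with 0.268% of 7450 genes called (20 genes; 432 at an unadjusted p under 0.05, and 12 by DESeq2). Ncr1, with its 4 UMIs, was not tested. Prf1 lay higher and Eomes lower in both YAP1 heterozygote libraries, and 35% of all tested genes had groups that did not overlap. Prf1 had 80.4 and 65.8 CPM in YAP1 heterozygote libraries, against 51.4 and 58.8 CPM in WT libraries (log2 fold change 0.39, adjusted p = 0.862). Eomes had 61.8 and 54.7 CPM, against 66.3 and 68.7 CPM (log2 fold change -0.21, adjusted p = 0.959). The 8 erythroid markers summed to 1625 and 2073 CPM in YAP1 heterozygote libraries and 32.0 and 99.3 CPM in WT libraries in these cells, with 1 and 3 of them at 0 and 2 and 2 at 0; their part in these values was not tested.

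Gzma in CD8 T cell-like cells rested on few cells. It had 136 and 68.2 CPM in YAP1 heterozygote libraries, against 25.1 and 290 CPM in WT libraries, and a single cell held between 25.6% and 72.6% of a library's Gzma UMIs. The log2 fold change was -0.76 (SE 0.50, adjusted p = 0.901). Without WT replicate 2 it turned to 1.96 (adjusted p = 3.16e-07), without WT replicate 1 it was -1.60 (adjusted p = 8.61e-16), and without YAP1 heterozygote replicate 1 it was -1.26 (adjusted p = 0.000231), so WT replicate 2 decides its sign. With no filter on low counts it was called at -0.78 (adjusted p = 0.00725). Over its 12 alternatives the adjusted p ran up to 1.00. Gzmb had a log2 fold change of -0.30 with all 4 libraries and 1.86 (adjusted p = 0.0361) without WT replicate 2. Without YAP1 heterozygote replicate 2, Klre1 was called at -1.78 (adjusted p = 0.00413), against -0.38 with all libraries. Nkg7, Ccl5 and Klrd1, found in many cells, had log2 fold changes of 0.18, -0.01 and 0.22.

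**Figure D5:**
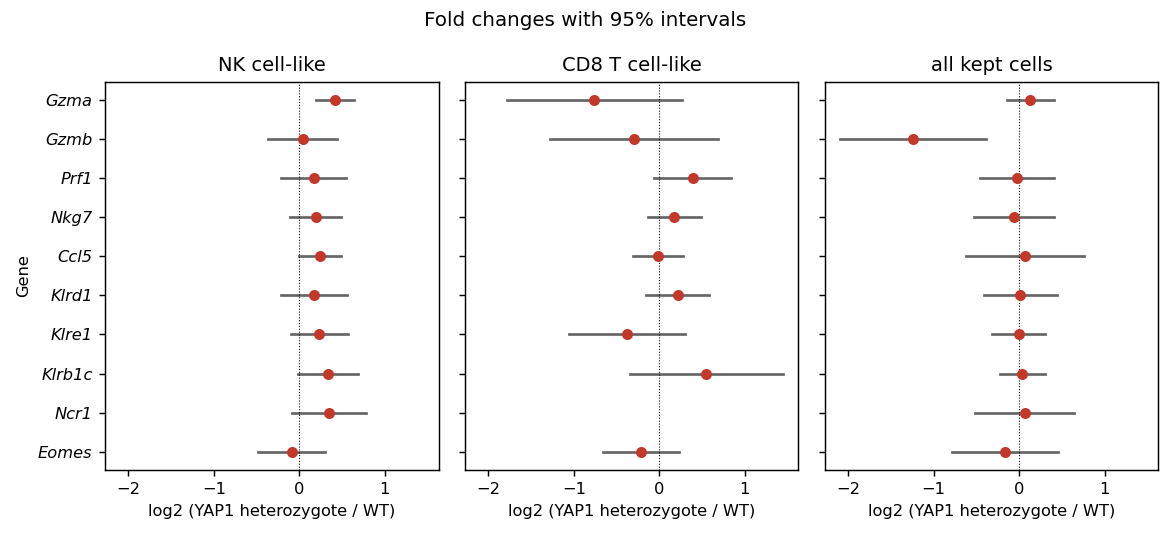
Log2 fold change of YAP1 heterozygote over WT libraries for each gene in NK cell-like, CD8 T cell-like and all kept cells, with 95% intervals of edgeR's fit. In NK cell-like cells 9 of 10 estimates lie above 0, beside a median of 0.00522 over all 5469 genes tested. The 10 estimates share cells and libraries, so their signs are not independent. None was called, and the widest intervals are those of Gzma and Gzmb in CD8 T cell-like cells.

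Over all kept cells summed, 0 of the 10 genes were called, with 0% of 15592 genes called (417 at an unadjusted p under 0.05, and 11 by DESeq2). In such sums fewer cells of a type and less RNA per cell cannot be told apart. Gzmb had 3.47 and 4.84 CPM in YAP1 heterozygote libraries, against 12.9 and 7.03 CPM in WT libraries, and was the only member whose groups did not overlap, as in 26.2% of genes. Its log2 fold change was -1.24 (SE 0.33, 95% interval -2.09 to -0.39, adjusted p = 1.00), -1.63 without WT replicate 2 (adjusted p = 0.0357) and -0.74 without WT replicate 1. Most of its UMIs came from basophil or mast cell-like cells, of which there were 264 and 152 in YAP1 heterozygote libraries and 314 and 215 in WT libraries. In that class Gzmb had 85.2 and 254 CPM, against 480 and 263 CPM (log2 fold change -1.28, adjusted p = 0.560, with 0.0436% of genes called). With the cell holding the most UMIs of a gene left out of each library, separately for every gene, Gzmb was called at -1.59 (edgeR adjusted p = 0.0314). In that setting 41 of 8806 genes were called, against 4 of 9177 with all cells. The top cell held 15.5% and 28.7% of the Gzmb UMIs of that class in YAP1 heterozygote libraries and 5.94% and 8.80% in WT libraries.

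Over all 20 classes with at least 20 cells in every library, 77 tests of a member were made and 1 was called, Nkg7 in plasma cell-like cells, where 0.266% of genes were called. In classes with no member called, the share of all genes called was 0.25% in macrophage-like cells, where no member was tested, 0.121% in sub-cluster 2, 0.0726% in nonclassical monocyte-like, 0.0411% in CD4 T cell-like, 0.0367% in B cell precursor-like, 0.0211% in mature neutrophil-like and 0.0103% in megakaryocyte-like cells, and 0% in the B cell-like, classical monocyte-like, erythroid cell-like, immature neutrophil-like, neutrophil precursor-like, sub-cluster 5 and both dendritic cell-like classes. It had 1 and 1 UMIs in 26 and 37 cells of YAP1 heterozygote libraries, and 27 and 105 UMIs in 21 and 77 cells of WT libraries. Nkg7 passed the filter on low counts there only through the WT libraries, where it is high, so it had to differ, and the call is not read as a result. The ratio of summed counts was 0.0250 (exact interval 0.00299 to 0.0920, for counting error only). Nearly every one of these Nkg7 cells, 1 of 1 and 1 of 1 in YAP1 heterozygote libraries and 6 of 6 and 6 of 7 in WT libraries, also had UMIs of Elane, Mpo or Prtn3, neutrophil precursor genes. All plasma cell-like cells together held 40 and 31 UMIs of these genes in YAP1 heterozygote libraries, and 474 and 3156 in WT libraries. How many cells without Nkg7 held them was not counted. The neutrophil precursor markers summed to 81.7 and 52.7 CPM in the plasma cell-like cells of YAP1 heterozygote libraries and 1523 and 2001 CPM in those of WT libraries; their part in the result was not tested. In the other 2 classes where a member came nearest to a call, Ccl5 had 17.3 and 17.7 CPM in classical monocyte-like cells of YAP1 heterozygote libraries, against 6.77 and 7.64 CPM in WT libraries (log2 fold change 1.30, adjusted p = 0.0979, 0.000434 by DESeq2, 0% of genes called), and 3.17 and 3.02 CPM in HSPC-like cells, against 10.2 and 17.4 CPM (log2 fold change -2.13, adjusted p = 0.0636, 0.0182% of genes called). These levels are low: in B cell-like cells, taken above as background, Ccl5 had a mean of 3.86 CPM, from 2.13 to 6.73 over the 4 libraries. The part of free RNA in these differences was not tested.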

How the data were processed

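Single-cell 3' libraries (kit version 3.1) of sorted bone marrow were read as UMI counts per gene and cell, deposited by the authors. The counts came from Cell Ranger 5.0.0, per the file headers. Version 3.0.0 is named instead in the submitters' processing notes, along with Seurat 4.3.0 and the builds mm10 and GRCm38. From these, cells under 500 UMIs, under 200 genes or over 10% mitochondrial UMIs were dropped, with called doublets (3.42% to 4.39% per library). Clustering (scanpy 1.11.5, leidenalg 0.10.2; 2000 variable genes without the 10 members, 30 components, resolution 1.0) gave 35 clusters, and 2087 lymphoid cells gave 15 sub-clusters. UMIs summed per library and class were tested with edgeR 4.0.16 (quasi-likelihood, filterByExpr, TMM, Benjamini-Hochberg over all genes, threshold 0.05) without a replicate block, and with DESeq2 1.42.0 as an alternative. Intervals of shares are Wilson 95% intervals, the limit given for a count of 0 is 3 counts of the total, and both cover counting error only. The script was tested on simulated data: in NK cell-like cells it called 11.8% of genes with a 1.5-fold change, 40.6% at 2-fold and 86.8% at 4-fold. The 10 members are named throughout, with genes most like each and, of the 6 lists, called genes or else the most expressed. Members, lists and markers were chosen with earlier results of these data known. One gene covered by the rule for named genes is not reported here.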

Additional observations from a re-analysis of the deposited data

How the results depend on the processing

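For the members tested in NK cell-like, CD8 T cell-like and all kept cells, the log2 fold change kept its direction and its side of the threshold in 109, 99 and 85 of the comparisons with an alternative, and an uncalled value changed sign in 7, 14 and 14; the called exceptions stand beside their genes above, other than those with the replicate block. In NK cell-like cells 9 genes were called in the main test, against 3 with DESeq2, 55 with the replicate block, 38 with no filter on low counts, 5 with doublets and mitochondrial-rich cells kept, 3 in the larger sub-cluster alone and 10 to 75 when 1 library was left out. In CD8 T cell-like cells 20 were called, against 12 with DESeq2, 35 with the replicate block, 52 with no filter, 24 to 137 with 1 library left out, and 4, 35 and 3 in sub-clusters 0, 7 and 8 alone. Over all kept cells 0 were called, against 11 with DESeq2 and 0 to 134 with 1 library left out (2 without WT replicate 1). In the other classes together 45 were called, against 153 with DESeq2, 1636 with the replicate block and 100 with the top cell of each gene left out. With the replicate block, 10 of the 77 tests of a member were called, against 1 without it: Ccl5 in 5 classes, Gzma in NK cell-like (adjusted p = 0.0185) and classical monocyte-like cells, Klre1 in classical monocyte-like, Gzmb in basophil or mast cell-like and Nkg7 in plasma cell-like cells. Over all genes of the 20 classes, 74 of 160348 tests were called without the block. With the block, over the same tests, 55 were called in NK cell-like cells, 35 in CD8 T cell-like cells and 1636 in the other classes. In CD8 T cell-like cells the log2 fold change ran from -1.60 to 1.96 for Gzma and from -1.01 to 1.86 for Gzmb with 1 library left out, and both turned positive without WT replicate 2; the cause was not tested. The difference in the share of NK cell-like cells ran from -0.0130 to 0.0546 percentage points with 1 library left out, and that of cells with at least 3 members from -0.367 to 0.119. The median co-detection ratio of unthinned NK cell-like cells was 1.00. Same-numbered libraries had correlated deviations (0.164 in NK cell-like, 0.185 in CD8 T cell-like and 0.492 in all kept cells), with only 2 pairs, so the numbers are not read as a pairing. The alternatives for sub-clusters alone and the shares without each library were chosen after seeing the data. With 84 to 114 NK cell-like cells a library, small changes of the low genes could not be detected.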
